A study of Mus musculus with 162 samples.

Results

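The skin response to MC903 in mice without the receptor for thymic stromal lymphopoietin (TSLP) was measured by RNA-seq at day 12 of treatment. Libraries were chosen by their labels (skin, genotype TSLPR.KO, no injection, Day_12), which gave 7 of the 162 libraries of the series, 4 labelled MC903 and 3 labelled ethanol. Both groups were adult male C57BL/6 mice that carried the Crlf2tm1Jni allele, a knockout of the TSLP receptor gene that is not limited to one tissue, and none had received an antibody or a vehicle injection. MC903 is calcipotriol, an analog of the active form of vitamin D, and 20 µL of a 0.2 mM solution in ethanol was applied once daily, with ethanol alone as the control. The study's mice were treated on the shaved cheek at 8 to 12 weeks of age, although the labels of these 7 libraries name the tissue only as skin and the methods text on RNA isolation does not list day 12. The libraries of a group are numbered without naming the animal, so the p-values below measure the spread between libraries. TSLPR KO skin of day 8 (3 MC903, 2 ethanol) and wild-type skin of day 8 (5 MC903, 6 ethanol, in 2 cohorts), treated in the same way in the same strain and sex, were used for comparison. The labels name no cohort: wild-type libraries with a bracketed library tag in their title were taken as cohort A (3 MC903, 3 ethanol) and the others as cohort B. In cohort A replicate number 1 recurs with MC903 and number 3 with ethanol, and each such library was counted as separate.

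TSLP is a cytokine that keratinocytes release when the epidermis is disturbed, and topical vitamin D analogs are known to induce it. It binds a receptor made of the Crlf2 product and the interleukin-7 receptor alpha chain, through which dendritic cells, basophils, innate lymphoid cells and T cells take up a type 2 programme with interleukin-4 and interleukin-13. Keratinocytes also answer a vitamin D analog directly, through the vitamin D receptor, and respond to injury with stress keratins, small proline-rich proteins, antimicrobial peptides and neutrophil-attracting chemokines. Mice without the receptor can still respond to the drug and make TSLP, but lack the receptor chain that binds it. The question put by the comparison is which changes of MC903-treated skin were present without that signal after 12 days.

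The 7 libraries held 39664886 to 49646775 counts on genes. The tissue label was checked against 10 keratinocyte genes (Krt5, Krt14, Krt1, Krt10 and others), whose mean log2(cpm + 0.5) lay between 8.97 and 10.95 in these libraries. Their summed level was 28300 to 39800 cpm with MC903 and 7600 to 17700 cpm with ethanol, so that it was higher in every MC903 library, and 3 of the 10 genes were called higher. The libraries also held transcripts of exocrine glands. A list of 10 salivary gland genes summed to 9010 to 43800 cpm with MC903 and 19200 to 152000 cpm with ethanol, against at most 201 cpm in the day 8 libraries of either genotype. Together with the secretoglobin, odorant-binding, exocrine-gland peptide and related secretory families, 185 gland genes in all, they took 4.07, 1.08, 3.75 and 4.98% of all counts in MC903 libraries 1 to 4 and 21.7, 2.75 and 31.5% in ethanol libraries 1 to 3, so that ethanol libraries 1 and 3 stood apart. How much of each tissue was in a library and how much RNA each cell held cannot be told apart in such bulk samples. The counts of each gene group below are also given when ethanol libraries 1 and 3 were both left out, which leaves 4 MC903 libraries against 1 and assumes that the lone ethanol library varies like the MC903 libraries, and when the mean level of the salivary gland list was a covariate. Both settings were added after the data were seen. Of the 10 keratinocyte genes none and 2 were called in them.

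**Figure D1:**
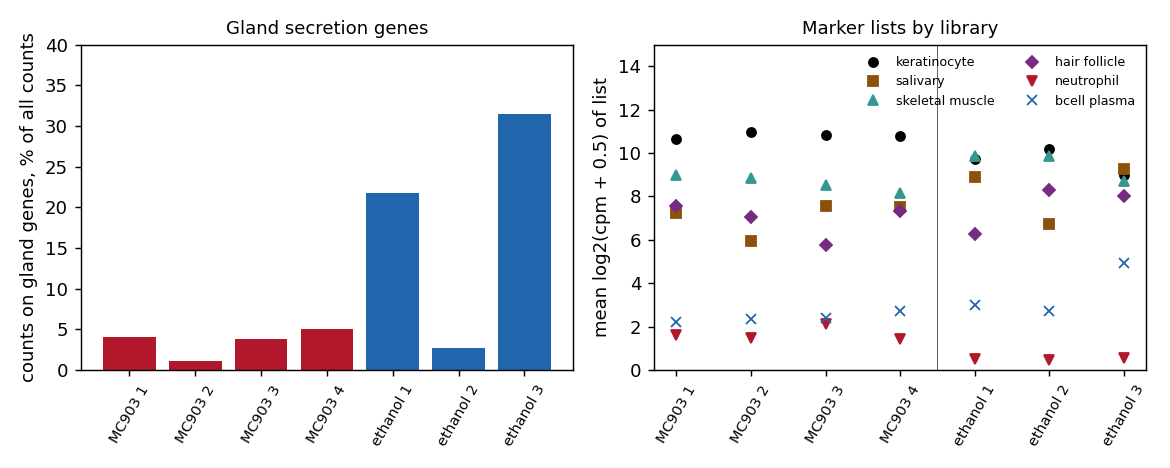
Left, share of all counts that fell on 185 gland secretion genes in each of the 7 TSLPR KO day 12 libraries (bars, % of counts); right, mean log2(cpm + 0.5) of 6 marker lists in the same libraries (points), with a vertical line between MC903 and ethanol. Ethanol libraries 1 and 3 carry 21.7 and 31.5% of their counts on gland genes, against 1.08 to 4.98% in the other 5. The keratinocyte list lies between 10.65 and 10.95 with MC903 and between 8.97 and 10.19 with ethanol, lowest in ethanol library 3.

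The targeted gene was read first. Crlf2 (ENSMUSG00000033467, chr5:109554709-109558993, minus strand, GRCm38) had 0.651, 1.15, 1.34 and 1.15 cpm in MC903 libraries 1 to 4 and 0.405, 0.756 and 0.405 cpm in ethanol libraries 1 to 3, from 18 to 60 counts, where cpm (CPM) is the count scaled to the library's total. All 7 values were below the lowest of the 11 wild-type libraries of day 8, which ranged from 2.24 to 12.3 cpm, and above the 5 TSLPR KO libraries of day 8, which ranged from 0.0691 to 0.277 cpm. The gene-level counts do not show which exons these reads came from. Tslp itself had 81.8, 33.8, 67.2 and 65.4 cpm in MC903 libraries 1 to 4 and 1.41, 1.88 and 1.23 cpm in ethanol libraries 1 to 3 (log2 change 5.36 ± 0.35, adjusted p = 0.000116). Here and below cpm of single genes is scaled by TMM within the 7 libraries. The log2 change is the log2 fold change of MC903 over ethanol with ± its standard error. Summed and mean levels of gene lists, and cpm ratios with a counting interval, are scaled to the library's total without TMM, gland counts included. Crlf2 was not called on the TMM scale (log2 change 0.88 ± 0.33, adjusted p = 0.131). Every MC903 library was far above every ethanol library in the ligand, in mice without its receptor. Of the 11 genes of TSLP signalling tested (receptor chains, kinases, STAT5 and its feedback targets), 2 were higher and none lower. The second was Socs3, a feedback inhibitor of cytokine signalling, at 22.8 to 35 cpm with MC903 and 9.33 to 13 cpm with ethanol (log2 change 1.23 ± 0.20, adjusted p = 0.00621). Only Tslp of this list was called without ethanol libraries 1 and 3, and with the gland covariate both were. Cish and Socs2, feedback targets of STAT5, were not called.

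Across the genome, 25432 genes reached 10 counts summed over the 7 libraries and were tested with edgeR's quasi-likelihood test. At an adjusted p under 0.05, 1375 genes were higher with MC903 (5.41% of those tested) and 1175 were lower (4.62%), and 1732 of these 2550 changed at least 2-fold. The median log2 fold change over all genes tested was -0.02, and in 5976 genes (23.5%) every library of one treatment was above every library of the other. These shares are the background against which the counts of each gene list are to be read. The number of calls rested on the libraries: it was 1271, 1682 and 1382 without MC903 libraries 1, 2 and 4, 1197 without ethanol library 1, 332 without ethanol libraries 1 and 3, and 955 with the gland level as a covariate.

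The genes with the smallest p among the higher ones belonged largely to the activated epidermis. Ptprz1 (ENSMUSG00000068748, chr6:22875502-23052916, plus strand), a receptor-type tyrosine phosphatase, had 93.5, 93.3, 93.5 and 109 cpm in MC903 libraries 1 to 4 and 4.79, 4.36 and 3.82 cpm in ethanol libraries 1 to 3 (log2 change 4.49 ± 0.17, adjusted p = 7.84e-06). Tmprss11b, a membrane-bound serine protease of squamous epithelia, had 21.7, 22.6, 23.2 and 27.6 cpm with MC903 and 0.677, 0.734 and 0.574 cpm with ethanol (log2 change 5.16 ± 0.20, adjusted p = 7.84e-06). In both genes the libraries of a group lay close together and the groups were far apart. Ptgs2 (ENSMUSG00000032487, chr1:150100031-150108227, plus strand), which encodes cyclooxygenase 2, the inducible enzyme of prostaglandin synthesis, had 98.9, 123.1, 178 and 147 cpm with MC903 and 2.11, 2.01 and 2.84 cpm with ethanol (log2 change 5.88 ± 0.28, adjusted p = 3.07e-05). Chil1, a secreted chitinase-like protein, had 82.3 to 148 cpm with MC903 and 3.31 to 4.98 cpm with ethanol (4.62 ± 0.28 on the log2 scale, adjusted p = 6.35e-05). Epgn, a ligand of the epidermal growth factor receptor, had 51.3 to 82.3 cpm with MC903 and 2.58 to 4.48 cpm with ethanol (4.31 ± 0.27, adjusted p = 9.26e-05), and Cdhr1, a protocadherin-related protein best known from photoreceptors, had 35.9 to 79.5 cpm with MC903 and 0.137 to 0.417 cpm with ethanol (7.90 ± 0.46, adjusted p = 6.35e-05). The remaining genes of this group were Klk13, Rbp2, Sprr1b, Mmp13, Il33 and Krt6b, described below with their families, together with Gsto1 (log2 fold change 2.09 ± 0.14), 2610528A11Rik (5.32 ± 0.33) and the predicted gene Gm7463 (5.72 ± 0.29). In each of these 15 genes the lowest MC903 library was above the highest ethanol library, as the rule that chose them required.

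**Figure D2:**
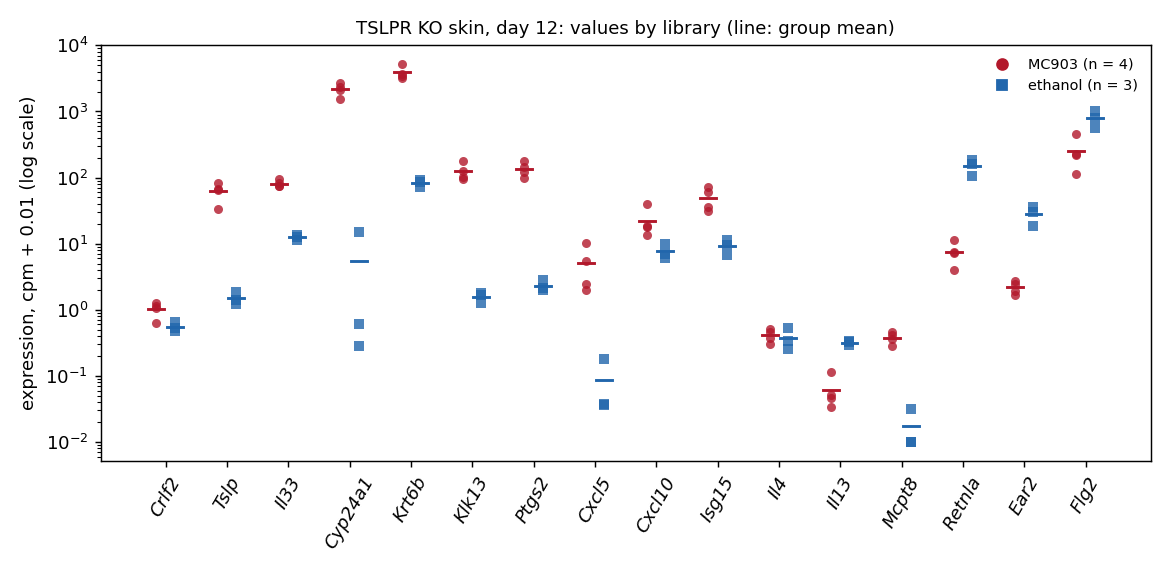
Expression of 16 genes in TSLPR KO skin at day 12, as cpm + 0.01 on a log axis, with a point for each of 4 MC903 (red) and 3 ethanol (blue) libraries and a line at the group mean. Tslp, Il33, Cyp24a1, Krt6b, Klk13, Ptgs2 and Isg15 separate with MC903 above ethanol, Il13, Retnla, Ear2 and Flg2 with ethanol above MC903, and Il4 overlaps.

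Keratin genes changed in both directions. Krt6b (ENSMUSG00000023041, chr15:101676023-101680287, minus strand), a keratin of wounded and hyperproliferative epidermis, had 3404, 3200.3, 3656 and 5309 cpm in MC903 libraries 1 to 4 and 87.1, 93.5 and 72.1 cpm in ethanol libraries 1 to 3 (log2 change 5.53 ± 0.33, adjusted p = 6.35e-05). Its partner Krt16 had 2936, 2749, 4757 and 4399.9 cpm with MC903 and 159.7, 221 and 104 cpm with ethanol (log2 change 4.52 ± 0.39, adjusted p = 0.000414). Both were low in every ethanol library and among the abundant transcripts of every MC903 library. The basal keratin Krt14 had 7731 to 11993 cpm with MC903 and 1412 to 2314 cpm with ethanol (log2 change 2.44 ± 0.32, adjusted p = 0.00236) and the suprabasal keratin Krt1, counted with the cornified list, 3859 to 8376 cpm with MC903 and 318 to 1055 cpm with ethanol (log2 change 3.16 ± 0.48, adjusted p = 0.0045). Krt77, a keratin of sweat ducts and resting suprabasal skin, fell, with 46.2, 193, 243 and 136 cpm with MC903 and 3360.4, 2587 and 935 cpm with ethanol (log2 change -3.89 ± 0.59, adjusted p = 0.00447). Krt15, a keratin of slow-cycling basal and bulge cells, fell as well, with 405 to 565 cpm with MC903 and 847 to 2026 cpm with ethanol (log2 change -1.67 ± 0.31, adjusted p = 0.0106). Of the 12 keratins tested, 4 were higher and 2 lower. The counts were 3 higher and 2 lower without ethanol libraries 1 and 3, and 4 and 2 with the gland covariate.

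Genes of the cornified envelope, the protein shell of the outermost keratinocytes, were higher in most members. Of the 48 members tested, 32 were higher, 2 lower and 14 not past the threshold, with a median log2 fold change of 2.53. With ethanol libraries 1 and 3 left out the counts were 16 and 0 and the median 2.35, and with the gland covariate 23, 0 and 2.22. Sprr1b, a small proline-rich envelope precursor, had 435, 406, 703 and 469 cpm in MC903 libraries 1 to 4 and 7.09, 8.74 and 11.3 cpm in ethanol libraries 1 to 3 (log2 change 5.80 ± 0.32, adjusted p = 5.01e-05). Lce3e, a late cornified envelope protein of the group induced by barrier injury, had 18.3, 15.9, 28.7 and 37.2 cpm with MC903 and 0.313, 0.13 and 0.246 cpm with ethanol (log2 change 6.78 ± 0.46, adjusted p = 0.000122), and all 6 members of its Lce3 group were higher. The Sprr2 and Lce3 genes are near-identical copies, so that the split of reads among them is uncertain. Flg2, which encodes filaggrin 2, a filament-aggregating protein of the granular layer, went the other way with 112.8, 461, 231 and 219 cpm in MC903 libraries 1 to 4 and 1017, 811 and 558 cpm in ethanol libraries 1 to 3 (log2 change -1.64 ± 0.42, adjusted p = 0.0399). Lce1m fell too, with 13.4, 50.4, 96.9 and 31.9 cpm with MC903 and 333, 334 and 143 cpm with ethanol (log2 change -2.49 ± 0.57, adjusted p = 0.0275). The lowest ethanol library was above the highest MC903 library in both, but the calls were fragile: at most 1 of the 2 passed without MC903 library 1, 2 or 3, and neither without MC903 library 4, ethanol library 1 or ethanol library 2.

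**Figure D3:**
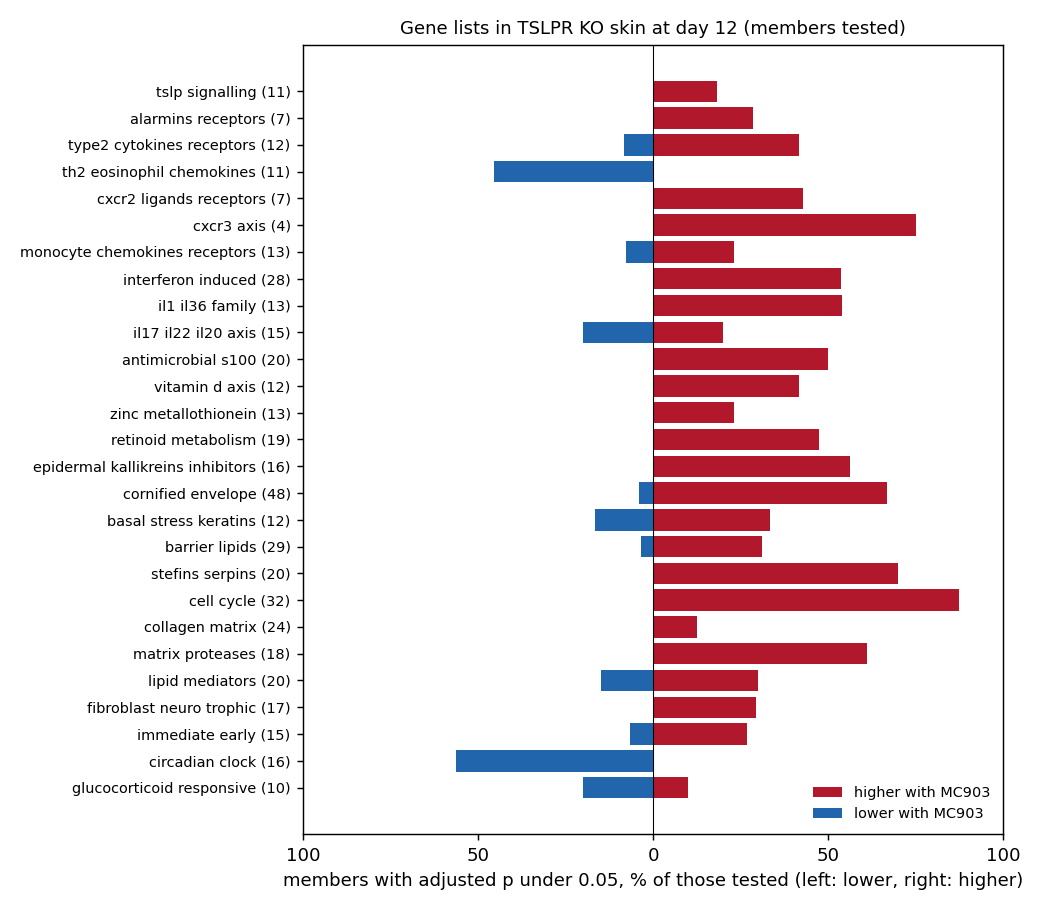
Share of the tested members of each of 27 gene lists that passed an adjusted p of 0.05 in TSLPR KO skin at day 12 (bars, % of members tested, left for lower and right for higher with MC903), with the number tested in brackets. The background over all genes is 5.41% higher and 4.62% lower; cell cycle, CXCR3 axis, stefins and serpins, and cornified envelope genes reach the highest shares on the right, and clock genes and eosinophil and T helper 2 chemokines on the left.

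Proteases of the upper epidermis and their inhibitors were higher in part. Klk13 (ENSMUSG00000054046, chr7:43712567-43727534, plus strand), a kallikrein serine protease, had 124.8, 100.5, 95.9 and 178 cpm in MC903 libraries 1 to 4 and 1.28, 1.79 and 1.64 cpm in ethanol libraries 1 to 3 (log2 change 6.31 ± 0.31, adjusted p = 3.07e-05). Klk6, a further kallikrein, had 819, 571, 736 and 1237 cpm with MC903 and 48.2, 67.7 and 41 cpm with ethanol (log2 change 4.01 ± 0.34, adjusted p = 0.000358). Of the 16 kallikreins and inhibitors tested, 9 were higher (Klk6, Klk7, Klk8, Klk9, Klk11, Klk12, Klk13, Prss27 and Spink12) and none lower, with a median log2 fold change of 1.76. Among 20 stefins and serpins, which inhibit cysteine and serine proteases, 14 were higher and none lower, and the median was 3.71. Serpinb3a had 5.74, 10.9, 11.3 and 5.53 cpm with MC903 and 0.13, 0.13 and 0.082 cpm with ethanol (log2 change 6.16 ± 0.44, adjusted p = 0.00016) and Serpinb3b 17.7 to 32.7 cpm with MC903 and 1.12 to 2.11 cpm with ethanol (log2 change 3.82 ± 0.31, adjusted p = 0.000272). Both lie in clusters of near-identical genes, so that reads may be shared among copies. In the fit without ethanol libraries 1 and 3, 4 kallikreins and 11 stefins and serpins were called, and with the gland covariate 8 and 11.

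Enzymes of the barrier lipids moved less. Of 29 tested, 9 were higher and 1 lower, with a median log2 fold change of 0.78. Degs2, which makes phytoceramides, had 42, 37.2, 59.6 and 62.4 cpm with MC903 and 13.4, 16.6 and 7.84 cpm with ethanol (log2 change 1.99 ± 0.29, adjusted p = 0.00381), and Elovl7, a fatty acid elongase, 241 to 286 cpm with MC903 and 93 to 136 cpm with ethanol (log2 change 1.16 ± 0.18, adjusted p = 0.00455). Alox12e, an epidermal lipoxygenase, fell, with 30.1, 52.7, 42.8 and 60 cpm with MC903 and 367, 376 and 214 cpm with ethanol (log2 change -2.78 ± 0.28, adjusted p = 0.000666). No member was called higher without ethanol libraries 1 and 3, where the median was 0.69, and 3 were with the gland covariate, while 1 was called lower in each.

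Genes that answer the drug itself were read next. Cyp24a1 (ENSMUSG00000038567, chr2:170482708-170497145, minus strand) encodes the 24-hydroxylase that breaks down active vitamin D and is a textbook target of its receptor. It had 2306, 1544, 2109 and 2742 cpm in MC903 libraries 1 to 4 and 15.2, 0.604 and 0.273 cpm in ethanol libraries 1 to 3 (log2 change 8.66 ± 1.47, adjusted p = 0.00738). Ethanol library 1 stood above the other 2 ethanol libraries and far below every MC903 library. S100g, a calcium-binding protein induced by vitamin D in the gut, had 1.03, 0.692, 2.68 and 0.99 cpm with MC903 and 0.104, 0.0648 and 0.0273 cpm with ethanol (log2 change 4.30 ± 0.67, adjusted p = 0.00494). Of 12 genes of the vitamin D axis, 5 were higher (these 2 with Pdpn, Cd14 and Slc30a10) and none lower. Slc30a10, a metal transporter, had 45 counts against 2 over each group, a cpm ratio of 16.3 with a 95% exact counting interval of 4.25 to 138 (adjusted p = 0.022). Of 19 retinoid genes, which handle vitamin A, 9 were higher and none lower, with a median of 0.87 (0.81 where members with at most 3 counts in every library of one group were set at that floor). Rbp2, a cellular retinol-binding protein, had 153, 122.4, 198 and 183 cpm with MC903 and 8.99, 8.38 and 6.88 cpm with ethanol (log2 change 4.34 ± 0.23, adjusted p = 4.63e-05). Lrat, which esterifies retinol for storage, had 107 to 166 cpm with MC903 and 4.98 to 12.8 cpm with ethanol (log2 change 3.96 ± 0.35, adjusted p = 0.000418). Of 13 zinc and metallothionein genes 3 were higher, among them the zinc importer Slc39a4 at 1.95 to 3.79 cpm with MC903 and 0.683 to 0.86 cpm with ethanol (log2 change 1.81 ± 0.30, adjusted p = 0.00703). Without ethanol libraries 1 and 3 the higher calls in these 3 lists were 1, 4 and 0, with the gland covariate they were 3, 6 and 1, and 1 zinc gene was called without MC903 library 1, MC903 library 2 or ethanol library 1.

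Il33 (ENSMUSG00000024810, chr19:29925114-29960718, plus strand), an alarmin stored in the nuclei of keratinocytes that acts beside TSLP on the same immune cells, had 73.6, 74.8, 83 and 94.1 cpm in MC903 libraries 1 to 4 and 13.7, 11.2 and 12.6 cpm in ethanol libraries 1 to 3 (log2 change 2.70 ± 0.16, adjusted p = 6.35e-05). Il1a, another alarmin of the epidermis, had 24.9, 26.8, 24.3 and 28.8 cpm with MC903 and 9.64, 9.78 and 10.1 cpm with ethanol (log2 change 1.41 ± 0.14, adjusted p = 0.000596). Both groups were tight and well apart in these 2 genes. Il25, Il18 and the interleukin-33 receptor gene Il1rl1 were not called, so that 2 of 7 alarmin genes were higher, as in the fit without ethanol libraries 1 and 3 and in that with the gland covariate.

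No type 2 cytokine gene was called higher. Il4, the cytokine that defines T helper 2 cells, had 0.37, 0.291, 0.456 and 0.507 cpm in MC903 libraries 1 to 4 and 0.521, 0.324 and 0.246 cpm in ethanol libraries 1 to 3 (log2 change 0.15 ± 0.39, adjusted p = 0.848), and the groups overlapped. Its direction changed with one library left out (-0.02 without ethanol library 3). Il13 had 2, 2, 5 and 1 counts with MC903 and 12, 13 and 12 with ethanol, or 0.0411, 0.0364, 0.104 and 0.0241 cpm with MC903 and 0.313, 0.281 and 0.328 cpm with ethanol (log2 change -2.51 ± 0.52, adjusted p = 0.0177), so that it was lower with MC903, at a level of a few counts. The call was lost without MC903 library 1, 2 or 4 or ethanol library 1, and with the gland covariate. It was also lost without ethanol libraries 1 and 3, so that the lower call counted below for that fit is another gene of the list. Il31 had no count in any of the 7 libraries, and Il5 at most 4 counts in any. Receptor genes were higher instead. Il4ra, the shared receptor chain for interleukins 4 and 13, had 101, 81.3, 75.2 and 113.3 cpm with MC903 and 30.1, 41.2 and 38.3 cpm with ethanol (log2 change 1.34 ± 0.19, adjusted p = 0.0035). Csf2rb, the common beta chain of the receptors for interleukin-3, interleukin-5 and GM-CSF, had 36.9, 30.7, 28.3 and 26.3 cpm with MC903 and 14.9, 13.9 and 11 cpm with ethanol (log2 change 1.20 ± 0.18, adjusted p = 0.00387). With Csf2rb2, Osmr and Il13ra1, 5 of the 12 type 2 genes tested were higher and 1 lower, and all 5 higher ones were receptor genes. The median log2 fold change was 0.55, or 0.27 with members at the 3-count floor set there. None of the 5 was called without ethanol libraries 1 and 3, where the median was 0.52, and 2 were with the gland covariate, while the lower calls were 1 and 0.

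Some chemokines that draw eosinophils and T helper 2 cells were lower. Of 11 tested, none was higher and 5 were lower, with a median log2 fold change of -1.14. Ccl27a, a keratinocyte chemokine that brings T cells to skin, had 18.8, 13.6, 16.1 and 26.7 cpm with MC903 and 65.1, 66.2 and 53 cpm with ethanol (log2 change -1.71 ± 0.22, adjusted p = 0.00236). Ccl11, eotaxin, had 15.1, 15.1, 21.4 and 15.5 cpm in MC903 libraries 1 to 4 and 43.8, 36 and 31.1 cpm in ethanol libraries 1 to 3 (log2 change -1.14 ± 0.18, adjusted p = 0.00556). Ccl24 (a further eotaxin) and the receptors Ccr3 and Ccr4 made up the other calls. The near-identical copies Ccl27b and Gm13306 were lower as well, at -2.73 ± 0.27 and -2.69 ± 0.25, so that the division of reads among the 3 is uncertain. With the gland covariate 4 of the 11 were called lower, without ethanol library 1 it was 3, and without ethanol libraries 1 and 3 it was 1.

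Most chemokines that draw neutrophils were higher. The CXCR2 ligand Cxcl5 had 2.47, 5.48, 10.3 and 1.98 cpm in MC903 libraries 1 to 4 and 0.0261, 0.173 and 0.0273 cpm in ethanol libraries 1 to 3 (log2 change 5.93 ± 0.86, adjusted p = 0.00362). Cxcl2 had 10.2, 4.43, 33.4 and 4.06 cpm with MC903 and 0.13, 0.0648 and 0.0546 cpm with ethanol (log2 change 7.25 ± 1.05, adjusted p = 0.00364), and Cxcl3 2.67, 1.18, 6.22 and 1.64 cpm with MC903 and 0.235, 0.194 and 0.0546 cpm with ethanol (log2 change 4.14 ± 0.72, adjusted p = 0.00833). The groups did not overlap in any of the 3, and MC903 library 3 was the highest in each. Cxcl1, the fourth CXCR2 ligand, had 2.69, 1.8, 4.92 and 1.55 cpm with MC903 and 1.43, 0.345 and 6.42 cpm with ethanol, and its groups overlapped (log2 change 0.01 ± 0.78, adjusted p = 0.994). So 3 of the 7 ligands and receptors of this axis were called higher, with none called without ethanol libraries 1 and 3 and 3 with the gland covariate. The list median was 4.14, or 1.10 with members at the 3-count floor set there.

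Of 16 neutrophil markers tested, 7 were higher and 1 lower, and the median was 1.49 (1.21 with members at the 3-count floor set there). The higher ones were Stfa2l1, Mmp8, Clec4d, S100a9, Trem1, S100a8 and Mmp9. Stfa2l1 had 8.82, 5.81, 13.4 and 8.93 cpm with MC903 and 0.156, 0 and 0.0273 cpm with ethanol (log2 change 7.24 ± 0.67, adjusted p = 0.000519), and Mmp8, a neutrophil collagenase, 10.6, 3.82, 4.02 and 7.63 cpm with MC903 and 0.182, 0.0648 and 0.082 cpm with ethanol (log2 change 5.88 ± 0.57, adjusted p = 0.000596). S100a8, S100a9 and the stefin are also made by activated keratinocytes, and Ly6g, the marker that defines mouse neutrophils, had at most 2 counts in any library. The member that was lower was Ltf, lactoferrin, with 0.37, 0.200, 0.228 and 0.604 cpm with MC903 and 60.1, 3.97 and 268 cpm with ethanol (log2 change -8.32 ± 1.25, adjusted p = 0.00424), a protein that glands also secrete and whose ethanol libraries ranked as their gland shares did. Summed over the list, without the TMM scaling that the values of Ltf carry, the level was 111 to 289 cpm with MC903 and 33.5 to 227 cpm with ethanol. With ethanol libraries 1 and 3 left out 2 members were called higher, and with the gland covariate 7, with 1 lower in each.

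Antimicrobial and interleukin-1 family genes were raised in the same libraries. Of 20 antimicrobial and S100 genes 10 were higher and none lower (median 1.93, or 1.63 with members at the 3-count floor set there). Defb4, a beta-defensin of inflamed epithelium, had 14.3, 10.7, 16.6 and 17.2 cpm in MC903 libraries 1 to 4 and 0.235, 0.151 and 0.0273 cpm in ethanol libraries 1 to 3 (log2 change 6.69 ± 0.45, adjusted p = 0.000117). Saa3, an acute phase serum amyloid, had 80.6, 126.1, 193 and 76.3 cpm with MC903 and 1.38, 3.09 and 1.48 cpm with ethanol (log2 change 5.90 ± 0.49, adjusted p = 0.000288). Every MC903 library was far above every ethanol library in both. Of 13 members of the interleukin-1 and interleukin-36 families 7 were higher and none lower, with a median of 1.09. Il1f8, which encodes interleukin-36 beta, had 34.5, 56, 59.4 and 58 cpm with MC903 and 5.34, 6.09 and 2.87 cpm with ethanol (log2 change 3.44 ± 0.31, adjusted p = 0.000494). With both of these ethanol libraries left out (1 and 3) the counts were 5 and 3, and with the gland covariate 9 and 6. In the interleukin-17, 22 and 20 group the calls went both ways, with 3 of 15 higher and 3 lower. Il24 and Il19, keratinocyte and myeloid cytokines of the interleukin-20 family, were higher. Il19 had 3.91, 2.57, 6.8 and 3.04 cpm with MC903 and 0.13, 0.194 and 0.082 cpm with ethanol (log2 change 4.85 ± 0.49, adjusted p = 0.000657), and Il24 had 643 counts against 1 over each group, a cpm ratio of 465 with a 95% exact counting interval of 83.1 to 18379 (adjusted p = 0.000494). Il22ra2, a decoy receptor for interleukin-22, was lower at 1.15 to 2.92 cpm with MC903 and 6.67 to 10.2 cpm with ethanol (log2 change -2.18 ± 0.32, adjusted p = 0.00399). Only Il24 of this group was called without ethanol libraries 1 and 3, and with the gland covariate 2 were higher and 3 lower.

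Genes induced by interferons formed a further group. Cxcl10 (ENSMUSG00000034855, chr5:92346638-92348889, minus strand), a ligand of the receptor CXCR3 that interferons induce, had 39.3, 18.6, 13.6 and 17.8 cpm in MC903 libraries 1 to 4 and 7.04, 9.82 and 6.15 cpm in ethanol libraries 1 to 3 (log2 change 1.54 ± 0.37, adjusted p = 0.0304). The related Cxcl9 had 199.8, 97.2, 59 and 96.8 cpm with MC903 and 16.3, 32.4 and 13.6 cpm with ethanol (log2 change 2.45 ± 0.45, adjusted p = 0.0112) and Cxcl11 18.1, 8.94, 6.62 and 7.8 cpm with MC903 and 1.46, 2.22 and 0.956 cpm with ethanol (log2 change 2.74 ± 0.43, adjusted p = 0.00515). In all 3 ligands MC903 library 1 was the highest and no libraries overlapped between groups, while the receptor gene Cxcr3 was not called. Of 28 interferon-induced genes tested, 15 were higher and none lower, with a median of 1.05. Oas1a, a sensor of double-stranded RNA, had 52.7, 28.9, 22.2 and 49.9 cpm with MC903 and 7.4, 6.35 and 7.87 cpm with ethanol (log2 change 2.42 ± 0.32, adjusted p = 0.00236), and Isg15, a ubiquitin-like modifier, 71.4, 31.1, 36.3 and 60 cpm with MC903 and 6.67, 11.4 and 9.42 cpm with ethanol (log2 change 2.44 ± 0.33, adjusted p = 0.00274). Without ethanol libraries 1 and 3 none of the 28 and none of the 3 ligands passed, at a median of 0.96 for the list, and with the gland covariate 8 and 1 did. With single libraries left out, the number of interferon-induced genes called lay between 8 (without ethanol library 1) and 20. Of the 3 ligands only Cxcl11 was called without ethanol library 1, and Cxcl10 lost its call also without MC903 library 2 or ethanol library 3.

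Interferon-induced genes are switched on through a promoter element that binds the transcription factor complex ISGF3. The letters GAAANNGAAA were searched on both strands from 250 bases before to 50 after the start sites, in promoter sequences from RefSeq (GRCm38.p6), as a short form of that element, overlapping matches included. They were found in 14 of the 22 interferon-induced genes with a promoter row (63.6%), in 6 of the 9 such genes called higher, and in 1079 of all 27025 genes with one (3.99%). A match is a description of the letters and shows no binding. Of the 13 strongest higher genes with a promoter row, Mmp13 and 2610528A11Rik held one. The vitamin D response element of the direct repeat type was found in 12 of all 27025 genes, and in none of the 9 vitamin D axis genes with a row. The sequences of 4 interferon-induced genes called higher are given for the 250 bases before the start because they carry this shared feature, 5′ to 3′ on the strand of the gene, with the matches in capitals.
Isg15 (chr4:156200819-156201068, minus strand): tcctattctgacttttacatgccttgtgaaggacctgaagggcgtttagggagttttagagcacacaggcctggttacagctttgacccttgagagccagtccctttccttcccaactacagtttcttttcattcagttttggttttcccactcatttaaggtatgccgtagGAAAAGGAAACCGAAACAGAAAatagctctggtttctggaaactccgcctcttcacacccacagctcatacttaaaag
Oas1a (chr5:120907526-120907775, minus strand): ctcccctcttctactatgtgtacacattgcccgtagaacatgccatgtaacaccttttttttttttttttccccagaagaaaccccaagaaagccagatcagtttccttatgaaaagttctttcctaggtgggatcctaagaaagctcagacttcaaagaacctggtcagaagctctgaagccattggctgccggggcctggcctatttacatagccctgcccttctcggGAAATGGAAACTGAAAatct
Rsad2 (chr12:26456453-26456702, minus strand): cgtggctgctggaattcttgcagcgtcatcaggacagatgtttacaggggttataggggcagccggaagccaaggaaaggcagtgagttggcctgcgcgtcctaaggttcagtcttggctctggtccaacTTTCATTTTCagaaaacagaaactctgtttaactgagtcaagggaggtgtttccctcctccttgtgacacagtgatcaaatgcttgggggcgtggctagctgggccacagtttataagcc
Ifit1 (chr19:34640639-34640888, plus strand): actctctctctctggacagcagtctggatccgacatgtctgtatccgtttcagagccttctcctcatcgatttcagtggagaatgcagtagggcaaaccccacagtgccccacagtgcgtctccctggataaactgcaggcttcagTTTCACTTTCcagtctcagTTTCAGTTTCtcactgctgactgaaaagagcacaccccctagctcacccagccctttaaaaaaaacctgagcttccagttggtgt
In Isg15 the 3 matches overlap, in Oas1a the 2 matches overlap close to the start, and in Rsad2 and Ifit1 the matches lie on the opposite strand. Rsad2 had 17.1 to 41.4 cpm with MC903 and 7.4 to 8.03 cpm with ethanol (log2 change 1.72 ± 0.31, adjusted p = 0.00951) and Ifit1 30 to 83.3 cpm with MC903 and 10.6 to 13.8 cpm with ethanol (log2 change 2.12 ± 0.34, adjusted p = 0.00564).

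Marker lists of other immune cells moved apart from each other. Of 10 mast cell markers 6 were higher and none lower (median 1.01). Hdc, the enzyme that makes histamine, had 13.4, 11.9, 23.4 and 8.74 cpm with MC903 and 3.57, 2.66 and 1.94 cpm with ethanol (log2 change 2.40 ± 0.37, adjusted p = 0.00449), and Fcer1a, the IgE-binding receptor chain of mast cells and basophils, 3.33, 2.64, 3.13 and 2.29 cpm with MC903 and 0.73, 0.82 and 0.273 cpm with ethanol (log2 change 2.21 ± 0.37, adjusted p = 0.0071). The summed level of the list was 230 to 311 cpm with MC903 and 80 to 164 cpm with ethanol. The count was 3 without MC903 library 1, 2 without MC903 library 2 or ethanol library 2, 0 without ethanol libraries 1 and 3 and 2 with the gland covariate. Of 5 basophil markers only Mcpt8, a basophil protease, was higher, with 71 counts against 1 over each group, a cpm ratio of 51.3 with a 95% exact counting interval of 8.92 to 2054 (adjusted p = 0.00352). The basophil list summed to 16.8 to 23.6 cpm with MC903 and 9.58 to 21.7 cpm with ethanol, and the groups overlapped. No basophil marker was called without ethanol libraries 1 and 3 and 1 was with the gland covariate. Of 6 eosinophil markers tested none was higher and 2 were lower. Ear2, an eosinophil-associated ribonuclease that macrophages also make, had 1.93, 1.69, 2.43 and 2.75 cpm in MC903 libraries 1 to 4 and 36.1, 30 and 18.4 cpm in ethanol libraries 1 to 3 (log2 change -3.68 ± 0.27, adjusted p = 0.000179), and Ear10, a near copy outside the list, 0.35, 0.164, 0.27 and 0.169 cpm with MC903 and 3.96, 2.74 and 2.29 cpm with ethanol (log2 change -3.64 ± 0.35, adjusted p = 0.000596). Ccr3, the eotaxin receptor, had 0.329, 0.565, 0.456 and 0.193 cpm with MC903 and 1.41, 1.25 and 0.683 cpm with ethanol (log2 change -1.51 ± 0.41, adjusted p = 0.0487), and 1 of the 6 was called without any one of the MC903 libraries or ethanol library 1, without ethanol libraries 1 and 3 and with the gland covariate. The list summed to 9.25 to 13.9 cpm with MC903 and 20.1 to 44.2 cpm with ethanol.

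Macrophage, dendritic and T cell genes changed in both directions. Retnla (ENSMUSG00000061100, chr16:48842551-48844461, plus strand), a secreted product of macrophages exposed to interleukin-4 that adipose tissue also makes, had 3.95, 7.23, 11.3 and 7.44 cpm in MC903 libraries 1 to 4 and 183, 162 and 107 cpm in ethanol libraries 1 to 3 (log2 change -4.33 ± 0.34, adjusted p = 0.000254). Mgl2, a lectin of dermal macrophages and dendritic cells, had 13.7, 21, 22.2 and 17.4 cpm with MC903 and 80.6, 67.1 and 47.8 cpm with ethanol (log2 change -1.81 ± 0.22, adjusted p = 0.00168). Both were below every ethanol library in all 4 MC903 libraries. Other genes of the same list were higher. Chil3 had 10.7, 3.72, 8.77 and 2.78 cpm with MC903 and 0.313, 0.216 and 0.382 cpm with ethanol (log2 change 4.42 ± 0.58, adjusted p = 0.0023), Arg1, arginase 1, had 92, 76.5, 88.8 and 166 cpm with MC903 and 40.3, 32.8 and 49 cpm with ethanol (log2 change 1.38 ± 0.28, adjusted p = 0.0172), and Chil4 had 187 counts against 2 over each group, a cpm ratio of 67.6 with a 95% exact counting interval of 18.4 to 562 (adjusted p = 0.00703). So 3 of 12 markers of alternatively activated macrophages were higher and 2 lower. Of 17 MHC class II and dendritic cell genes 2 were higher and 6 lower, with a median of -0.74. Cd207, langerin, the marker of Langerhans cells, had 0.884, 2.62, 2.57 and 1.93 cpm with MC903 and 15, 11.5 and 8.5 cpm with ethanol (log2 change -2.54 ± 0.36, adjusted p = 0.00325), and H2-DMa, which loads peptides on class II molecules, 12.4 to 15.6 cpm with MC903 and 22.9 to 36.7 cpm with ethanol (log2 change -1.13 ± 0.18, adjusted p = 0.00575). The costimulatory ligand Cd80 at 1.74 to 2.8 cpm with MC903 and 0.756 to 0.971 cpm with ethanol (log2 change 1.34 ± 0.26, adjusted p = 0.0142) and the integrin Itgax at 11.4 to 33.4 cpm with MC903 and 6.89 to 9.09 cpm with ethanol (log2 change 1.45 ± 0.34, adjusted p = 0.0276) were higher. Of 17 T cell markers 3 were higher and 3 lower. The beta-chain constant gene Trbc2 had 33.9, 29.3, 46 and 33 cpm with MC903 and 15.2, 15.9 and 16.3 cpm with ethanol (log2 change 1.17 ± 0.18, adjusted p = 0.00439), and Ctla4, a checkpoint receptor of activated and regulatory T cells, 2.44 to 4.48 cpm with MC903 and 0.704 to 1.12 cpm with ethanol (log2 change 1.77 ± 0.32, adjusted p = 0.00968). The gamma-delta chain gene Trdc, carried in mouse epidermis by resident T cells, had 2.92, 2.93, 2.24 and 3.48 cpm with MC903 and 7.01, 5.09 and 6.12 cpm with ethanol (log2 change -1.07 ± 0.21, adjusted p = 0.0153), and Cd3g 4.46 to 5.84 cpm with MC903 and 8.48 to 9.64 cpm with ethanol (log2 change -0.82 ± 0.17, adjusted p = 0.0173). Without ethanol libraries 1 and 3 the higher and lower calls were 0 and 2 for the macrophage list, 0 and 1 for the dendritic list and none for T cells. With the gland covariate they were 3 and 2, 0 and 2, and 1 and 0. With single libraries left out, the dendritic list had 0 to 2 higher and 2 to 8 lower, with 2 lower without MC903 library 1, 2 or 4. The T cell list had 2 to 7 higher, the most without MC903 library 3, and 0 to 3 lower, the fewest without ethanol library 1. The summed level of B and plasma cell genes was 186 to 383 cpm with MC903 and 307 to 1950 cpm with ethanol, 2 of 9 members were lower (Jchain, -2.37 ± 0.57, and Cd79a, -4.54 ± 1.11), and the median of -2.15 became -0.17 without ethanol libraries 1 and 3. No member was called in that fit or with the gland covariate. Without single libraries the number was 0 (MC903 library 1, 2 or 3 or ethanol library 3), 1 (MC903 library 4 or ethanol library 1) or 7 (ethanol library 2, the one with the smallest gland share). Monocyte chemokines and receptors were mixed, with 3 of 13 higher (Ccr1, 2.08 ± 0.24, Ccl3, 3.71 ± 0.60, and Ccl4) and Ccr2, the receptor of inflammatory monocytes, lower (-0.84 ± 0.21). None of the 13 was called without ethanol libraries 1 and 3, and 3 were higher and none lower with the gland covariate. Ccr2 lost its call also without MC903 library 1, 2 or 4 or ethanol library 1 or 2.

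Of 18 enzymes that remodel the dermal matrix 11 were higher and none lower (median 1.27, 3 called without ethanol libraries 1 and 3 and 9 with the gland covariate). Mmp13, a collagenase, had 47.9, 24.6, 36.5 and 49.6 cpm in MC903 libraries 1 to 4 and 0.938, 0.907 and 1.07 cpm in ethanol libraries 1 to 3 (log2 change 5.35 ± 0.31, adjusted p = 6.35e-05). Among 24 collagens and other matrix proteins 3 were higher and none lower, with a median of 0.30, and 1 was called without any one library except MC903 library 3, without which 5 were. None was called without ethanol libraries 1 and 3 and 1 with the gland covariate. Tnc, tenascin C, a matrix protein of healing wounds, had 144, 153, 221 and 146 cpm with MC903 and 28.7, 45.9 and 53.2 cpm with ethanol (log2 change 1.96 ± 0.26, adjusted p = 0.00236), and Col7a1, the anchoring fibril collagen, 54.8 to 77.2 cpm with MC903 and 37.6 to 43.9 cpm with ethanol (log2 change 0.60 ± 0.16, adjusted p = 0.044). Of 17 growth factors that act on nerves and epithelium 5 were higher and none lower, with none called without ethanol libraries 1 and 3 and 4 with the gland covariate. Hbegf, a ligand of the epidermal growth factor receptor, had 37.4, 21.9, 37.4 and 37.7 cpm with MC903 and 6.46, 11 and 8.82 cpm with ethanol (log2 change 1.94 ± 0.26, adjusted p = 0.00246). Osm, Areg and Artn were also higher. Among 20 genes of lipid mediators 6 were higher and 3 lower: beside Ptgs2, the prostaglandin E synthase Ptges had 208, 173, 176 and 219 cpm with MC903 and 42.9, 32.8 and 23.1 cpm with ethanol (log2 change 2.56 ± 0.23, adjusted p = 0.000512), while Alox15, a lipoxygenase of eosinophils and macrophages, had 0.761, 0.892, 0.498 and 0.821 cpm with MC903 and 2.29, 2.55 and 2.1 cpm with ethanol (log2 change -1.64 ± 0.27, adjusted p = 0.00616) and the prostaglandin receptor Ptger4 7.26 to 10.8 cpm with MC903 and 15.8 to 18.4 cpm with ethanol (log2 change -0.89 ± 0.17, adjusted p = 0.0137). Of these, 2 were called higher and none lower without ethanol libraries 1 and 3, 3 and 2 with the gland covariate, and only 1 lower without MC903 library 4.

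Genes of rapid and daily regulation were read as a check of handling and time of day. Of 15 immediate early genes 4 were higher and 1 lower. Fosl1 had 4.99 to 8.05 cpm with MC903 and 0.495 to 1.45 cpm with ethanol (log2 change 2.66 ± 0.36, adjusted p = 0.00264) and Fos 23.8, 18.4, 55.1 and 25.2 cpm with MC903 and 6.23, 7.49 and 9.51 cpm with ethanol (log2 change 1.99 ± 0.38, adjusted p = 0.0121), while Nr4a1 had 17.2 to 28.2 cpm with MC903 and 31.1 to 38.8 cpm with ethanol (log2 change -0.74 ± 0.19, adjusted p = 0.0435). Of 16 clock genes none was higher and 9 were lower, with a median of -0.85. Tef, a clock output regulator, had 70.8, 80.4, 66.1 and 72.3 cpm with MC903 and 179, 169 and 144 cpm with ethanol (log2 change -1.18 ± 0.15, adjusted p = 0.00174), and Per2, a core clock repressor, 9.28, 10.9, 8.92 and 9.9 cpm with MC903 and 19.5, 21.7 and 28.3 cpm with ethanol (log2 change -1.25 ± 0.17, adjusted p = 0.00269). At day 8, 5 of the 16 clock genes were lower and none higher in TSLPR KO skin (median -0.73). In wild-type skin of day 8, 10 were lower and 2 higher (median -0.73). The hour at which each mouse was taken is not in the labels, and its part in these values was not tested. Of 10 genes that glucocorticoids induce, Mt2 was higher (1.07 ± 0.28, adjusted p = 0.0434), Klf9 (-0.86 ± 0.21, adjusted p = 0.0313) and Zbtb16 (-0.87 ± 0.24, adjusted p = 0.0493) were lower and 7 were not called. Without ethanol libraries 1 and 3, 2 clock genes, 1 immediate early gene and no glucocorticoid-responsive gene passed, and with the gland covariate 6, 2 and none did. The clock count was 4 without MC903 library 1, MC903 library 4 or ethanol library 1 and 5 without ethanol library 2. The immediate early count of higher genes was 2 without MC903 library 1 and 1 without ethanol library 1. Nr4a1 lost its call without any one library except MC903 library 3, and with the gland covariate. None of the 3 glucocorticoid-responsive calls remained without MC903 library 1 or 2 or ethanol library 1 or 2.

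Cell cycle genes were the list with the highest share of calls. Of 32 tested, 28 were higher and none lower, with a median log2 fold change of 1.32 and a range from 0.36 to 1.86. Ccna2, cyclin A2, which drives DNA replication and entry into mitosis, had 48.3, 48.6, 40 and 44.3 cpm in MC903 libraries 1 to 4 and 14.2, 16.4 and 19.6 cpm in ethanol libraries 1 to 3 (log2 change 1.44 ± 0.16, adjusted p = 0.000988). Cdc20, an activator of the anaphase-promoting complex, had 29.9, 29.9, 26.8 and 27.4 cpm with MC903 and 8.13, 10.2 and 11.9 cpm with ethanol (log2 change 1.50 ± 0.17, adjusted p = 0.00102). The groups did not overlap in either gene, and the MC903 libraries lay close together. The number of calls moved with the ethanol libraries: 7 of the 32 passed without ethanol libraries 1 and 3 and 15 with the gland covariate, while the median was 1.34 and 1.26. Without any single library the count lay between 21 and 30.

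**Figure D4:**
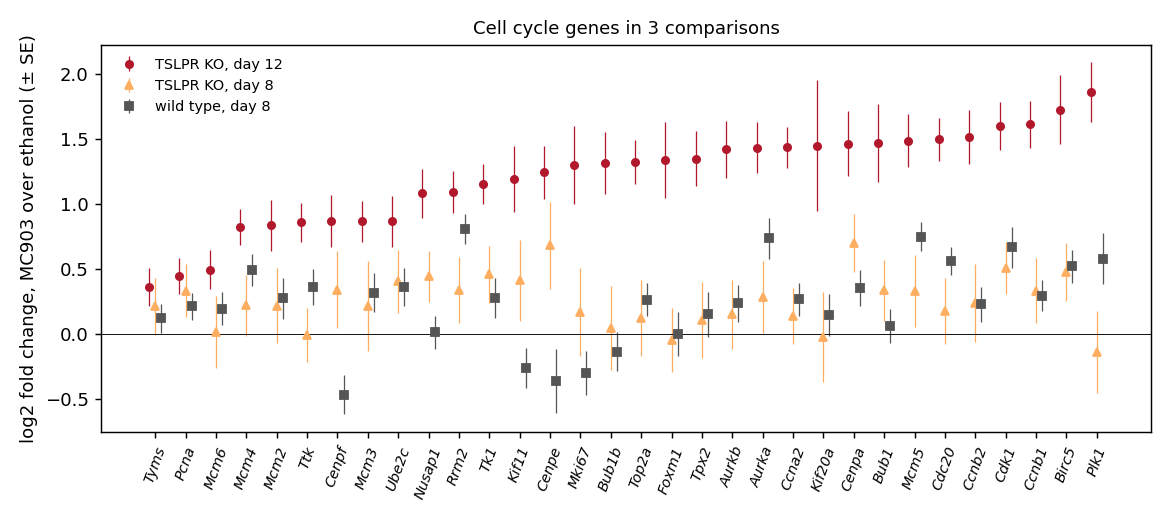
Log2 fold change (MC903 over ethanol, ± SE) of 32 cell cycle genes, ordered by their value in TSLPR KO skin at day 12 (circles), with TSLPR KO skin at day 8 (triangles) and wild-type skin at day 8 (squares). The day 12 values run from 0.36 to 1.86 with a median of 1.32, while the medians at day 8 are 0.23 in TSLPR KO and 0.26 in wild-type skin.

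The genes with the smallest p among the lower ones fell into 2 kinds. Of the 15, 7 came from the secretoglobin and exocrine-gland peptide families (Scgb1b3, Scgb2b1, Scgb2b7, Scgb2b15, Scgb2b17, Esp15 and Esp16), which hold many near-identical copies. Esp16 had 0.103, 0.109, 0.083 and 0.217 cpm with MC903 and 1547, 90.2 and 3061 cpm with ethanol (log2 change -13.58 ± 1.28, adjusted p = 0.000586), and ethanol library 2, the one with the smallest gland share, was the lowest of its group. The predicted gene Gm14135 had the same order of ethanol libraries, with 0.0206, 0, 0.0415 and 0.0724 cpm with MC903 and 921, 50.9 and 1557 cpm with ethanol (adjusted p = 0.000588). Over the 139 gland genes tested, 80 were lower and 0 higher. In the other 7 (Ear2, Ear10, Retnla and Gm13306, given above, with Myoc, Defb7 and 9130204L05Rik) ethanol library 3, the one with the largest gland share, was the lowest of its group. Myoc, myocilin, had 7.16, 7.27, 6.7 and 9.08 cpm with MC903 and 47.4, 33.5 and 26 cpm with ethanol (log2 change -2.24 ± 0.22, adjusted p = 0.000596). Defb7, a beta-defensin, had 0.0617, 0.0729, 0.124 and 0.169 cpm with MC903 and 32.9, 42.3 and 8.28 cpm with ethanol (log2 change -8.02 ± 0.63, adjusted p = 0.000253), and 9130204L05Rik 0.72, 0.437, 2.32 and 1.26 cpm with MC903 and 193, 157 and 45.6 cpm with ethanol (log2 change -6.81 ± 0.66, adjusted p = 0.000596). Of the 9 salivary genes tested no member was called, or 8 without ethanol library 2, and MC903 libraries held them too: Amy1, salivary amylase, had 7943, 1929.9, 9484 and 10328 cpm with MC903 and 28316, 3991 and 42072 cpm with ethanol, and Bpifa2, a parotid secretory protein, 21506, 4989, 15514 and 27037 cpm with MC903 and 99004, 9814 and 121720.0 cpm with ethanol. Skeletal muscle genes were lower in 7 of 14 (median -1.11). Casq1, the calcium store protein of muscle, had 80, 106, 80.8 and 73.8 cpm with MC903 and 321, 265 and 171 cpm with ethanol (log2 change -1.57 ± 0.23, adjusted p = 0.00375), and Pvalb, parvalbumin, 191 to 316 cpm with MC903 and 549 to 870.0 cpm with ethanol (log2 change -1.60 ± 0.24, adjusted p = 0.00402). The muscle list summed to 5680 to 10600 cpm with MC903 and 8380 to 19500 cpm with ethanol, and 3 or 4 members were called without MC903 library 1, 2 or 4 or ethanol library 1 or 2, 2 without ethanol libraries 1 and 3 and 4 with the gland covariate. Adipocyte genes were lower in 3 of 10 (Cfd, -1.02 ± 0.18, Plin4, -0.95 ± 0.21, and Cidec), and hair follicle genes in 1 of 23 (Krt84, -1.80 ± 0.47) at a median of -0.97. Sebocyte genes were higher in 3 of 12 (Awat2, 1.25 ± 0.26, Dgat2l6, 1.23 ± 0.21, and Elovl3) and lower in 1 (Plin5, -1.18 ± 0.29). No adipocyte, hair follicle or sebocyte gene was called without ethanol libraries 1 and 3, and with the gland covariate 2 adipocyte genes were lower, 1 sebocyte gene was higher and no hair follicle gene was called. Krt84 and Plin5, the single lower calls of their lists, lost theirs in most fits without 1 library. In 5 of 7 such fits 1 adipocyte gene was called, instead of 3. Of 14 sensory neuron genes Tubb3, a neuronal tubulin, was higher at 38.3 to 53.7 cpm with MC903 and 6.33 to 22.1 cpm with ethanol (log2 change 1.68 ± 0.36, adjusted p = 0.0201) and Calcb, a CGRP gene, lower at 0.452 to 1.06 cpm with MC903 and 2.16 to 3.45 cpm with ethanol (log2 change -2.04 ± 0.34, adjusted p = 0.00665), with 13 of 17 listed members under 1 cpm in every library. Of 8 Schwann cell genes Cnp was lower (-0.62 ± 0.15), and none of 8 endothelial (Pecam1, 0.41 ± 0.19, Cdh5, 0.31 ± 0.25) or 5 erythroid genes (Hbb-bs, -0.61 ± 0.39, Hba-a1, -0.50 ± 0.34) was called. Of the sensory neuron and Schwann cell genes 1 was higher and none lower without ethanol libraries 1 and 3, and none was higher and 1 lower with the gland covariate. The salivary, hair, muscle, sensory neuron and endothelial lists mark other tissue of the sample, and their part in the other results was not tested beyond the 2 settings above.

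TSLPR KO skin of day 8 gave the same genotype 4 days earlier, from other libraries with their own controls. There, 318 genes were higher (1.31% of 24292 tested) and 276 lower (1.14%), in 5 libraries. Of the 318 higher genes 265 (83.3%) were also higher at day 12, which is 19.3% of the day 12 calls, and of the 276 lower genes 171 (62%) were also lower, which is 14.6%. None of the higher genes and 1 of the lower genes was called in the opposite direction. The difference between the days was tested directly in one fit of 12 libraries, and no gene passed by edgeR's quasi-likelihood test (smallest adjusted p 0.158, 2028 genes at an unadjusted p under 0.05), while DESeq2 called 148. Day and cohort cannot be told apart. Some epidermal and neutrophil-attracting genes can be set side by side: Krt6b changed by 5.08 ± 0.44, adjusted p = 0.000636, at day 8 and 5.53 ± 0.33 at day 12 on the log2 scale. Ptprz1 changed by 4.51 ± 0.27, adjusted p = 0.000118, at day 8 and 4.49 ± 0.17 at day 12. Ptgs2 changed by 6.44 ± 0.40, adjusted p = 0.000125, at day 8 and 5.88 ± 0.28 at day 12, and Cxcl5 by 6.25 ± 0.88, adjusted p = 0.00709, and 5.93 ± 0.86. Cxcl1 was called at day 8, with 3.51 to 20 cpm with MC903 and 0.233 to 0.39 cpm with ethanol (5.07 ± 0.80, adjusted p = 0.0123), and was not at day 12. Cxcl2 and Cxcl3, called at day 12, were not called at day 8, where 2 of 6 genes of the CXCR2 axis were. Of 6 alarmin genes tested at day 8 only Il1a was called higher, so that Il33, called at day 12, was not. Il4 was not called at day 8 (-0.71 ± 0.53, adjusted p = 0.584), and neither was Il13 (-1.85 ± 1.19, adjusted p = 0.519). No cell cycle gene was called at day 8, where the median of the 32 was 0.23, and of the interferon-induced genes 2 of 28 were called at a median of 0.69. Day 8 calls numbered 594 in all, and 179, 365 and 326 without MC903 libraries 1, 2 and 3 and 334 without ethanol library 1, so that the overlap with day 12 rests on few libraries.

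Wild-type skin of day 12 was not used as the reference for the genotype. Of the 9 libraries labelled wild-type skin of day 12, 6 (the libraries labelled MC903 2, 3 and 4 and ethanol 1, 3 and 4) had a mean log2(cpm + 0.5) of 1.39 to 1.76 over the keratinocyte list and of 8.69 to 8.79 over 17 sensory neuron genes, whereas the other 3 had 10.11 to 10.83 and -0.08 to 0.3. Among these 3, Cyp24a1 was at 0.956 cpm in the library labelled MC903 and at 7460 and 5260 cpm in the libraries labelled ethanol 2 and 5. Krt6b was at 68.6 cpm in the library labelled MC903 against 7070 and 6710 cpm. The labels were kept as given. With all 9 libraries no gene was called for wild-type skin of day 12 by edgeR (548 at an unadjusted p under 0.05, 16 by DESeq2), and 53 genes differed in effect between the genotypes. That count was 0 without any one TSLPR KO library other than ethanol library 2. Without the 6 libraries the counts were 5717 and 6012, from 1 library labelled MC903 against 2 labelled ethanol. No gene is named from these comparisons.

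The nearest wild-type reference was therefore skin of day 8, chosen after the data were seen and fitted with a term for its 2 cohorts. It differs from TSLPR KO skin of day 12 in genotype, day and cohort together, which cannot be told apart. In it 3189 genes were higher (12.2% of 26175 tested) and 2936 lower (11.2%). Of the 1375 genes higher in TSLPR KO skin of day 12, 994 (72.3%) were higher there too, which is 31.2% of the wild-type calls, and of the 1175 lower genes 623 (53%), which is 21.2%. In the opposite direction were 7 of the higher and 13 of the lower genes. Tested as a difference of the MC903 effect in one fit of 18 libraries, 108 genes had a higher effect in TSLPR KO day 12 skin (0.386% of 27944 tested) and 218 a lower one (0.78%). These counts were 160 in all with cohort A as the only wild-type reference and 28 with cohort B, against 326 with both. Without TSLPR KO MC903 library 1, 2 or 4 the number was 201, 105 and 160, and without ethanol library 1 it was 93. Without single wild-type libraries it fell to 192 (an ethanol library of each cohort), 148 (a cohort A ethanol library) and 176 (a cohort B MC903 library). All genes named for this difference were chosen after their values were seen.

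Large epidermal effects were found in both. Krt6b changed in wild-type skin by 5.50 ± 0.21, adjusted p = 4.77e-09, and the difference between the effects was 0.00 ± 0.31, adjusted p = 1. For Ptprz1 the difference was 0.00 ± 0.25, adjusted p = 1, and for Ptgs2 -0.17 ± 0.34, adjusted p = 0.918. A difference that misses the threshold does not show that the effects are equal, and its standard error gives how finely it was measured. Of 48 cornified envelope genes 3 had a higher effect in TSLPR KO day 12 skin and none a lower one. Casp14, the caspase of terminal differentiation, had 359.7 to 784 cpm with MC903 and 40.8 to 54 cpm with ethanol (log2 change 3.49 ± 0.35, adjusted p = 0.000648) against 194 to 602 cpm with MC903 and 125.5 to 245 cpm with ethanol in wild-type skin, with a difference of 2.66 ± 0.43, adjusted p = 0.00513. Lor, loricrin, had 231 to 949 cpm with MC903 and 285 to 999.9 cpm with ethanol (log2 change -0.32 ± 0.52, adjusted p = 0.75) against 7.82 to 27.4 cpm with MC903 and 100.2 to 292 cpm with ethanol, with a difference of 2.81 ± 0.67, adjusted p = 0.048. Lce1m was lower in both, with 3.84 to 13.7 cpm with MC903 and 227 to 518 cpm with ethanol in wild-type skin (-5.26 ± 0.36, adjusted p = 5.28e-07) and a difference of 2.75 ± 0.66, adjusted p = 0.0488. Klk13 had a larger effect in TSLPR KO day 12 skin, with 166 to 256 cpm with MC903 and 7.37 to 11.3 cpm with ethanol in wild-type skin and a difference of 1.80 ± 0.25, adjusted p = 0.00179. Its ethanol levels lay further apart between the 2 settings than its MC903 levels, although the levels of each setting were scaled by TMM separately. Cyp24a1 did not pass (1.40 ± 0.98, adjusted p = 0.64), and neither did Tslp (0.90 ± 0.74, adjusted p = 0.707).

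Some type 2 genes and basophil genes differed. Il13 had 0.0685 to 1.92 cpm with MC903 and 0 to 0.151 cpm with ethanol in wild-type day 8 skin, where it was higher with MC903 (2.99 ± 0.91, adjusted p = 0.0307), and the difference was -5.53 ± 1.22, adjusted p = 0.0333. Csf2rb reached 70.7 to 142 cpm with MC903 and 10.5 to 17 cpm with ethanol there (2.78 ± 0.18, adjusted p = 3.39e-07), with a difference of -1.61 ± 0.26, adjusted p = 0.00513. With Csf2rb2 these were the 3 of 14 type 2 genes with a lower effect, and none had a higher one. Il4 was higher in wild-type skin, with 2.36 to 18.6 cpm with MC903 and 0.57 to 1.39 cpm with ethanol (2.92 ± 0.50, adjusted p = 0.00115), but the difference did not pass (-2.80 ± 0.77, adjusted p = 0.0885). All 5 basophil markers were higher in wild-type day 8 skin and 3 had a lower effect in TSLPR KO day 12 skin (Cd200r3, Prss34 and Gata2). Cd200r3, a receptor of basophils and mast cells, had 4.28, 5.03, 5.91 and 4.59 cpm with MC903 and 6.57, 6.15 and 4.4 cpm with ethanol in TSLPR KO and 7.32 to 13.4 cpm with MC903 and 2.7 to 3.21 cpm with ethanol in wild-type skin (difference -2.11 ± 0.25, adjusted p = 0.00051). The basophil protease gene Prss34 had 2, 1, 2 and 4 counts with MC903 and 10, 12 and 5 with ethanol in TSLPR KO skin and 0.455 to 1.51 cpm with MC903 and 0 to 0.195 cpm with ethanol in wild-type skin (difference -6.26 ± 1.02, adjusted p = 0.00513). Mcpt8 was at 7.47 to 21.2 cpm with MC903 and 0.0259 to 0.117 cpm with ethanol in wild-type skin, against at most 0.452 cpm in TSLPR KO skin, although the difference of the effects, taken from an ethanol group of 1 count, did not pass (-2.26 ± 1.98, adjusted p = 0.74).

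Eosinophil, macrophage and neutrophil-chemokine genes were among the others. Ear2 was at 4.88 to 9.35 cpm with MC903 and 9.56 to 24.1 cpm with ethanol in wild-type skin (difference -2.81 ± 0.34, adjusted p = 0.00051) and Retnla at 15.8 to 28.9 cpm with MC903 and 56.1 to 164 cpm with ethanol (difference -2.16 ± 0.44, adjusted p = 0.0236). Both were lower with MC903 in either genotype, and by more in TSLPR KO day 12 skin. Mgl2, which fell there, was not called in wild-type skin, with 43.4 to 111 cpm with MC903 and 32.6 to 79.2 cpm with ethanol (0.46 ± 0.23, adjusted p = 0.178), and the difference was -2.30 ± 0.36, adjusted p = 0.00452. Alox15 was higher with MC903 in wild-type skin (1.77 ± 0.39, adjusted p = 0.00594) and lower in TSLPR KO day 12 skin, with a difference of -3.43 ± 0.55, adjusted p = 0.00513. Cxcl1 had 1.12 to 3.87 cpm with MC903 and 0 to 0.242 cpm with ethanol in wild-type skin and a difference of -4.93 ± 1.13, adjusted p = 0.0415. Its ethanol level was 0.345 to 6.42 cpm in TSLPR KO day 12 skin, highest in the 2 libraries with the most gland counts. The level of Cxcl1 thus moved with the gland share within the ethanol group, and the part of that tissue was not tested. Ltf, a gland product, differed in the same direction (-10.58 ± 1.71, adjusted p = 0.00513). A lower effect was also found in 4 of 13 monocyte chemokines and receptors, 2 of 11 eosinophil and T helper 2 chemokine genes and 1 of 4 CXCR3 axis genes. No gene of these lists had a higher one. None of 28 interferon-induced genes differed (median difference -0.68). In wild-type skin 24 of these 28 and all 4 CXCR3 axis genes were higher with MC903, at medians of 1.84 and 3.80.

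**Figure D5:**
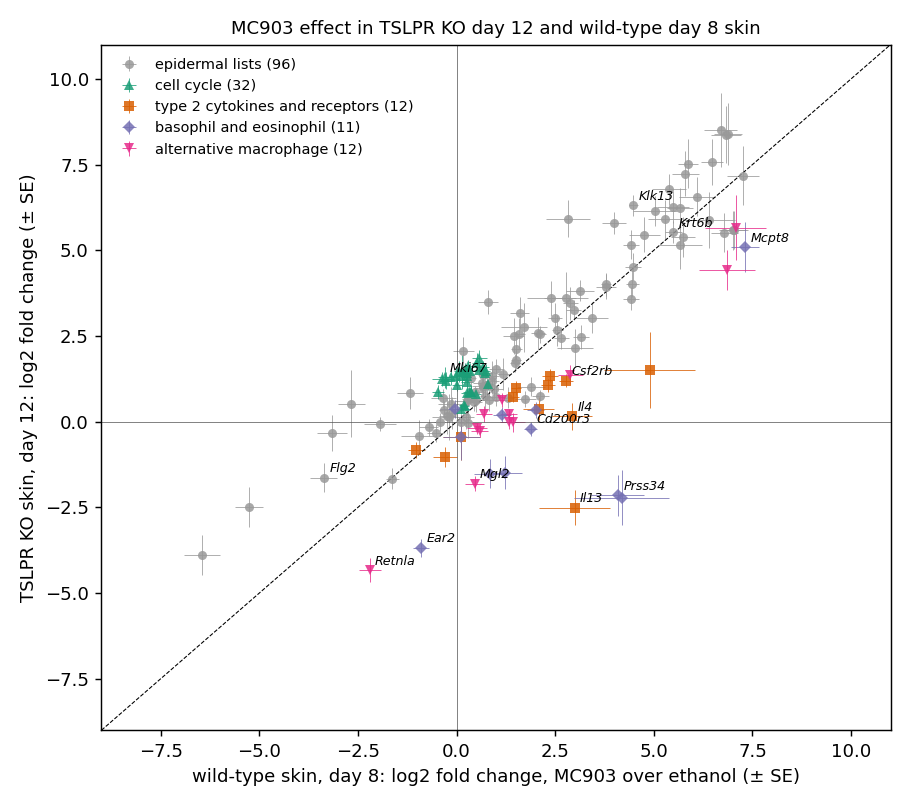
Log2 fold change (MC903 over ethanol, ± SE) in wild-type skin of day 8 (x axis) against TSLPR KO skin of day 12 (y axis) for the members of 5 groups of lists, with the line of equal effect dashed. Epidermal genes scatter on both sides of the line from Flg2 (lower in both) to Krt6b (higher in both), cell cycle genes cluster above it, and Il13, Prss34, Cd200r3, Mgl2, Retnla and Ear2 lie below it.

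Cell cycle genes differed in the opposite direction. Of the 32, 15 had a higher effect in TSLPR KO day 12 skin and none a lower one, and 8 were higher and 1 lower with MC903 in wild-type skin. For Ccna2 the difference was 1.14 ± 0.21, adjusted p = 0.0123, and for Cdc20 0.91 ± 0.19, adjusted p = 0.0236. The MC903 levels of Ccna2 were 40 to 48.6 cpm in TSLPR KO day 12 skin and 50.4 to 78.8 cpm in wild-type day 8 skin. The ethanol levels were 14.2 to 19.6 and 44.2 to 62.4 cpm, so that they lay further apart than the MC903 levels. The levels of day 12 and of day 8 were scaled by TMM separately, and only the day 12 libraries held many gland counts. The hair follicle list, whose cells divide in growing hair, had a mean log2(cpm + 0.5) of 6.26 to 8.28 in the TSLPR KO day 12 ethanol libraries. In the wild-type day 8 ethanol libraries it was 8.68 to 10.03. With MC903, 20 of 23 members were lower in wild-type day 8 skin (median -2.04) and 1 of 23 in TSLPR KO day 12 skin (median -0.97). None was higher in either, and none of the 23 differed in effect (median difference 1.19). The part of the hair follicle was not tested. Pmel, a pigment granule protein of melanocytes, had 41.3, 35.1, 15.8 and 30.7 cpm with MC903 and 5.0, 8.63 and 15.4 cpm with ethanol in TSLPR KO day 12 skin and 16.6 to 32.5 cpm with MC903 and 30.7 to 68 cpm with ethanol in wild-type day 8 skin (difference 2.46 ± 0.45, adjusted p = 0.0123), and Dct, an enzyme of melanin synthesis, 63.1, 72, 38.3 and 51.6 cpm with MC903 and 11.4, 16.4 and 33.3 cpm with ethanol and 65.7 to 119.97 cpm with MC903 and 107 to 198 cpm with ethanol (difference 2.08 ± 0.39, adjusted p = 0.0141). In TSLPR KO day 12 skin the calls of these 2 genes were lost without MC903 library 1, 2 or 4 or ethanol library 1 or 2, without ethanol libraries 1 and 3 and with the gland covariate.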

How the data were processed

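RNA-seq was measured in skin of MC903-treated and ethanol-treated mice. Per the labels and the study's methods, the authors sequenced poly(A) RNA single-end, aligned reads to mm10 with Bowtie2 and TopHat (TopHat2 and HTSeq in the submitters' processing notes) and deposited raw counts per gene from htseq-count. The annotation release and the strand setting are not given in the sources used here, so genes that overlap or lie antisense may share reads. Of 46078 genes per library, 45229 matched GENCODE M21 (GRCm38), which gave symbols and coordinates. The 5 tally lines that name no gene were left out, of which no_feature held 8 to 18.2% and ambiguous 1.84 to 2.83% of a library.

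From these counts, genes reaching a sum of 10 counts over the fitted libraries were tested with edgeR 4.0.16 (R 4.3.3), with TMM scaling, the quasi-likelihood F test and Benjamini-Hochberg adjustment over all genes tested, at a threshold of 0.05. Adjusted p below 0.05 is meant by "called", "higher" and "lower". CPM, the count scaled to library size, was computed from the deposited counts, and for single genes it was scaled by TMM within each comparison. Crlf2 by library, wild-type day 12 values, list levels and cpm ratios with counting intervals were not scaled by TMM. SE is the log2 fold change over the root of F. The 7 libraries held 39664886 to 49646775 counts, with all pairs of one group further apart than sampling noise. A floor of 3 counts per library was used for bounds, and intervals cover counting error only.

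Genes named are Crlf2 and Tslp; up to 15 per direction with the smallest p, at least 2-fold, at least 1 cpm and no overlap of groups; and 2 per direction in each of 45 lists with the smallest p. Further genes were named after their values were seen. Of the genes chosen this way, 2 are not reported here. The members and lists were chosen with earlier results of these data known. A rule for genes of the day 12 interaction was set aside because of the wild-type libraries described above. DESeq2 1.42.0, other filters and scalings, a replicate block and leaving out each library were alternatives, and gland settings, the day 8 wild-type comparison and libraries left out for their tissue were added after the data were seen. Same-numbered libraries of the 2 day 12 groups did not deviate together (correlations -0.218, 0.094 and -0.197), so the numbers were not used as pairs. Scripts were tested on simulated counts. Figures were drawn with matplotlib 3.10.9.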

Additional observations from a re-analysis of the deposited data

Results flagged for a closer look

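In 10 of 140 named genes 1 of the 4 MC903 libraries stood apart from the other 3, by the share of the group's range that its gap to the nearest library took. Chance alone singles out about 1 in 20 groups of 4. MC903 library 3 was the high one in Ccl11 (share 0.942), Tnc (0.883) and S100g (0.831), and MC903 library 4 in Ptprz1 (0.986), Hbb-bs (0.858), Scgb1b3 (0.88) and Scgb2b17 (0.837). MC903 library 1 was high in Ctla4 (0.895) and low in Il1f8 (0.867), and MC903 library 2 was low in Hbegf (0.98).

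In 23 named genes the effect of MC903 in TSLPR KO skin of day 12 differed from that in wild-type skin of day 8, by edgeR's quasi-likelihood test of the difference. Genotype, day and cohort cannot be told apart in it. The log2 difference was positive in 8 genes: Lor 2.81, Lce1m 2.75, Casp14 2.66 and Klk13 1.8 of the epidermis, Pmel 2.46 and Dct 2.08 of melanocytes, and Ccna2 1.14 and Cdc20 0.91 of the cell cycle. It was negative in 15 genes. Those of immune cells and their mediators were Prss34 -6.26, Il13 -5.53, Cxcl1 -4.93, Alox15 -3.43, Ear2 -2.81, Mgl2 -2.3, Ear10 -2.26, Retnla -2.16, Cd200r3 -2.11, Csf2rb -1.61 and H2-DMa -1.33. Those that moved with the gland or B cell lists in the ethanol libraries were Esp15 -17.86, Esp16 -17.38, Ltf -10.58 and Cd79a -6.47.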

How the results depend on the processing

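The 2550 calls of TSLPR KO day 12 skin became 3998 with DESeq2, 332 without ethanol libraries 1 and 3, 955 with the gland covariate and 1197 to 3603 without single libraries. Of the 140 named genes all but 12 were called there, and of those called 58 stayed so in every setting tried and none reversed in any. The replicate block left 548 calls (335 higher, 213 lower), although the numbers do not pair the libraries, since only 1 of 3 correlated best with its own number. It gave 1274 calls at day 8, 6 for the difference between days and 0 for the genotype difference at day 12. Calls of TSLPR KO day 8 skin were 1278 with DESeq2, 1401 without a filter and 179 to 822 without single libraries. The difference between days gave 148 with DESeq2, 4 without a filter and 0 to 52 without single libraries. Wild-type day 12 skin gave 16 with DESeq2 and 5717 without the 6 libraries. The genotype difference at day 12 gave 1072 with DESeq2, 6012 without the 6 libraries and 0 to 69 without single libraries. The difference from wild-type day 8 skin gave 898 with DESeq2, 160 with cohort A alone, 28 with cohort B alone and 93 to 423 without single libraries. The direction turned only in genes that were not called: Amy1 (0.886 without ethanol libraries 1 and 3, 0.245 with the gland covariate), Bpifa2 (0.806 and 0.033), Cxcl1 (0 with filterByExpr, -0.518 to 1.676 without single libraries), and, without single libraries, Hba-a1 (-0.762 to 0.125), Hbb-bs (-0.9 to 0.143) and Il4 (-0.023 to 0.5). The cause was not tested. With 3 ethanol libraries, small changes of genes with few counts were not detectable.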
